A study of Mus musculus with 12 samples.

Results

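Fibroblasts grown from mouse embryos (MEFs) are a standard primary culture: mesenchymal cells that make collagen-rich matrix, keep traces of the body region they came from in the Hox and other patterning genes they express, and stop dividing when serum is taken away. The 6 arrays described here are 2 sets of wild-type MEF cultures that share the Rb1 genotype and the treatment. Arrays S1 to S3 carry RNA from Rb1 +/+ cells that served as controls for Rb1 S/S mutant cells, and arrays L1 to L3 carry RNA from Rb1 +/+ cells that served as controls for Rb1 L/L mutant cells. The 6 were taken by these titles from the 12 arrays of the series, and the other 6 are 3 S/S and 3 L/L mutant arrays. All 12 cultures were grown in medium with 10% fetal bovine serum to passage 4 and then held in 0.1% serum for 72 h, a treatment that every group shares. Rb1 encodes the retinoblastoma protein, which restrains the E2F factors that switch on S-phase genes. Neither the change made by the S and L alleles nor the strain or age of the embryos is named in the labels, and they leave unsaid whether the arrays of a group came from separate embryos, so a p-value here measures only the spread between these samples. Set is tied to embryos, culture and array handling, and these cannot be told apart.

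The study measured RNA on the Affymetrix Mouse Gene 1.0 ST array, whose probes lie along the whole transcript, and its values are log2 expression after robust multiarray averaging. One probe set stood for each of 19938 genes. Every difference below is the mean of L1 to L3 minus the mean of S1 to S3 on that log2 scale, so a value of 1 is 2-fold. Higher and lower refer to the L set, and a gene is called only if it passed limma's moderated test, two-sided, at a Benjamini-Hochberg adjusted p under 0.05 over all genes. The number of arrays limits the precision. In these bulk samples a lower value can mean fewer cells of a type or less RNA per cell, which cannot be told apart.

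One array stood apart. S1 had a narrower spread of values than the other 11 (interquartile range 3.10 against at least 3.39), correlated with them at 0.955 to 0.974, and lay alone at -58.98 on the first principal component of the 6 wild-type arrays, with the others between 1.30 and 21.2. L1 and L/L 1 read as male: Xist, the RNA that silences the inactive X chromosome, was at 10.37, 10.86 and 11.07 on S1 to S3 and 5.06, 11.43 and 11.20 on L1 to L3, and the Y-linked genes were raised on those arrays only. Fibroblast markers were high in both sets, with Vim, an intermediate filament protein of mesenchymal cells, between 13.31 and 13.62 on every wild-type array. For the gene lists, counts of higher or lower members that moved by more than 1.5 times, or to or from 0, when 1 array or L1 and L/L 1 together were left out are given beside the full count. The shares of all genes were 3.54% higher, 5.17% lower and 8.71% in all. Lists near or below these were neural (9.52%), redox (10%), protease (8%) and unfolded protein genes (9.38%). So were endothelial (5.88%), adipocyte (5.56%), antigen presentation (5%), germline (4%) and sterol genes (3.57%). Beyond the 12 largest differences each way and the 5 smallest p of each list, list members that passed were named after their values were seen. Rb1 itself was at 8.34, 8.83 and 8.89 on S1 to S3 and 9.23, 9.05 and 8.61 on L1 to L3 and did not pass (0.28, SE 0.17, adjusted p = 0.36).

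Of the 19938 genes, 1736 (8.71%) passed between the wild-type sets. The L set was higher for 706 of them (3.54%) and lower for 1030 (5.17%), and centring each array on its median gave 333 higher and 975 lower. The 3 arrays of one set all lay beyond the 3 of the other for 5501 genes (27.6%, with 11.5% higher and 16.1% lower), and for 1729 of the 1736. Lack of overlap is therefore nearly given for a gene that passed. Below it describes the arrays and adds no support to a call. Among the passing genes 170 differed at least 2-fold, and the median size was 0.60. The median over all genes was -0.068, and 0.001 without S1. All 1736 kept their sign in each of the 22 alternative settings. Where arrays were left out this follows, for the 1729, from the lack of overlap. Several other settings cannot change the difference itself. These are the wild types alone, another estimate of spread, no low genes, a replicate block, or a mutant array left out. The sign was open to change under the scalings, array weights and the mean of a gene's probe sets. Of the 1736, 450 passed whichever single array was left out, and 1455 passed without S1. The fit to the 6 wild-type arrays alone, which does not use the spread of the mutant arrays, called 228. The count itself was 525 without L1, 714 without L2, 1098 without L3 and 304 without L1 and L/L 1 together. The higher count was 170 without L1, 220 without L2 and 369 without L3, and the lower count 355 without L1, 494 without L2 and 679 without S3.

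**Figure D1:**
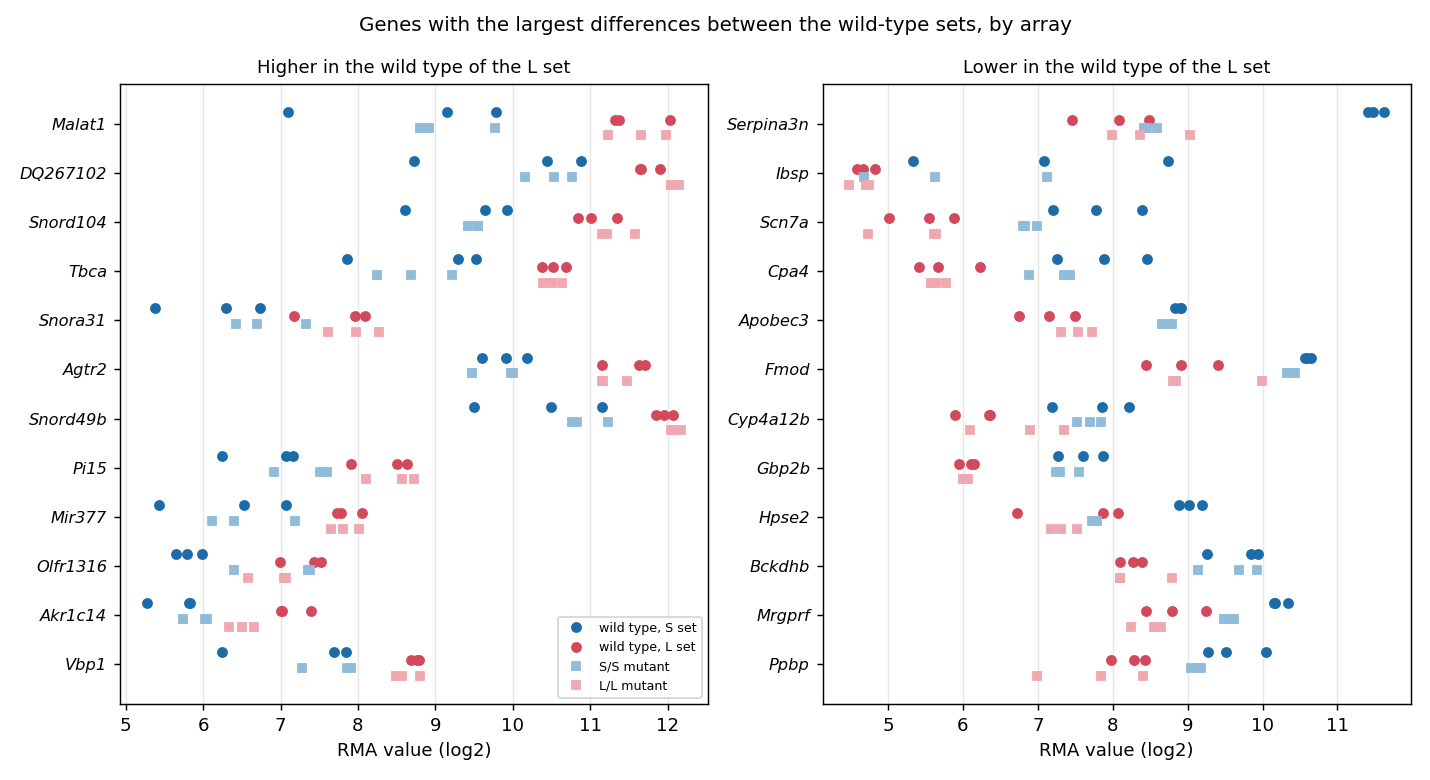
RMA values (log2, horizontal axis) of the 24 genes with the largest differences, 12 higher and 12 lower in the L set, with a point for each of the 3 wild-type arrays and each of the 3 mutant arrays of both sets. Malat1 lies between 7.10 and 9.78 on the S set wild types and between 11.32 and 12.04 on those of the L set, and Serpina3n between 11.41 and 11.62 against 7.45 and 8.49.

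The 12 largest differences each way were taken among genes that passed with no overlap of arrays. Their lack of overlap was therefore set by that choice. On the higher side the largest difference was in Malat1, a long noncoding RNA that stays in the nucleus and is abundant in most cells. Its values were 7.10, 9.78 and 9.15 on S1 to S3 and 12.04, 11.37 and 11.32 on L1 to L3. S1 was the lowest array, and the difference was 2.90 (SE 0.51, adjusted p = 0.00615), or 7.46-fold. Agtr2, the angiotensin type 2 receptor of embryonic mesenchyme, read 9.60, 10.19 and 9.92 on S1 to S3 and 11.15, 11.71 and 11.63 on L1 to L3. Its arrays were tight within each set and differed by 1.59 (SE 0.19, adjusted p = 0.00115). Pi15, a secreted protease inhibitor of the CAP family, differed by 1.52 (adjusted p = 0.00604), Akr1c14, an aldo-keto reductase that acts on steroids, by 1.50 (adjusted p = 0.000753), and the olfactory receptor gene Olfr1316 by 1.50 (adjusted p = 0.00353). Snord104, Snord49b, Snora31, Mir377 and DQ267102, small RNA genes described below with their classes, were also among the 12. Tbca, a tubulin folding cofactor, differed by 1.63 (adjusted p = 0.0122) with adjusted p = 0.0594 without L1. Vbp1, a subunit of the prefoldin chaperone, differed by 1.48 (adjusted p = 0.0137) with adjusted p from 0.0513 to 0.0572 without L1 or L2.

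On the lower side Serpina3n led. This secreted serine protease inhibitor of the antichymotrypsin family, an acute-phase gene, read 11.41, 11.47 and 11.62 on S1 to S3 and 7.45, 8.08 and 8.49 on L1 to L3. No wild-type gene differed more in size: the S set lay 11.3-fold above the L set (-3.49, SE 0.25, adjusted p = 6.61e-05). Scn7a, a sodium channel gene expressed in non-excitable cells, read 7.20, 7.78 and 8.40 on S1 to S3 and 5.88, 5.02 and 5.54 on L1 to L3. The Scn7a difference was -2.31 (SE 0.30, adjusted p = 0.00165). Cpa4, a secreted carboxypeptidase, read 7.26, 7.88 and 8.45 on S1 to S3 and 5.42, 5.67 and 6.23 on L1 to L3. The Cpa4 difference was -2.09 (SE 0.27, adjusted p = 0.00146). The S arrays of Scn7a and Cpa4 spread over more than 1 log2 unit. Fmod, a small leucine-rich proteoglycan that binds collagen, was at 10.59, 10.57 and 10.64 on S1 to S3 and 8.44, 8.91 and 9.40 on L1 to L3, close together in the S set and spread in the L set, a difference of -1.69 (SE 0.28, adjusted p = 0.00409). Mrgprf, an orphan receptor, differed by -1.39 (adjusted p = 0.00126), Hpse2, a heparanase relative, by -1.47 (adjusted p = 0.00577), Bckdhb, a subunit of the branched-chain keto acid dehydrogenase, by -1.43 (adjusted p = 0.00411), and Cyp4a12b, a fatty acid hydroxylase, by -1.55 (adjusted p = 0.00737). Ppbp, a platelet chemokine, differed by -1.38 (adjusted p = 0.0108) with adjusted p = 0.0529 without L2. Ibsp, bone sialoprotein, was less stable: its S values were 5.34, 8.74 and 7.08, and its difference of -2.36 (adjusted p = 0.047) came with adjusted p from 0.0652 to 0.143 without any 1 of 9 arrays. Its L values of 4.59, 4.82 and 4.66 were low readings, within the 3.82 to 5.51 of Y-linked genes on arrays that read as female.

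Part of the DNA replication and mitosis genes were lower in the L set, and with all 12 arrays no gene of either list passed as higher. Replication genes encode the origin-licensing complex, the polymerases and the chromatin assembly factors of S phase. Of 52 measured, 14 were lower (26.9%, where 5.17% of all genes were) and the median difference was -0.36, with 9 of the 52 differences above 0. Of 56 mitosis genes, 17 were lower (30.4%), with a median of -0.38 and 10 of the 56 above 0. The replication count was 22 without S1 or without L3, 9 without S2, 1 higher and 9 lower without S3, 5 without L1, 6 without L2 and 3 without L1 and L/L 1 together. The mitosis count was 29 without S1, 10 without L1 and 4 without L1 and L/L 1 together. The arrays were not evenly placed. The mean over the replication genes, relative to the 12-array mean, was -0.11, 0.19 and 0.18 on S1 to S3 and -0.41, -0.27 and 0.003 on L1 to L3, and over the mitosis genes -0.071, 0.34 and 0.36 on S1 to S3 and -0.38, -0.19 and 0.076 on L1 to L3. L1 was the lowest of the 6 in both, and L3 the highest of its set in both. S1 lay below S2 and S3 in both, so the sets stood further apart without it, with medians of -0.42 and -0.53.

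Within replication, Chaf1b, the middle subunit of the histone chaperone CAF-1, read 9.40, 9.19 and 9.31 on S1 to S3 and 8.03, 8.12 and 8.69 on L1 to L3. Every L array lay below every S array and L3 was the nearest, a difference of -1.02 (SE 0.16, adjusted p = 0.00326). Pole, the catalytic subunit of leading-strand polymerase, differed by -0.97 (adjusted p = 0.00411), Pold2, a subunit of DNA polymerase delta, by -0.76 (adjusted p = 0.00654), and Pola2, a subunit of the DNA polymerase alpha and primase complex, by -0.54 (adjusted p = 0.00545). Orc1, the largest subunit of the origin recognition complex, read 6.49, 6.74 and 6.53 on S1 to S3 and 5.99, 5.92 and 5.97 on L1 to L3. The Orc1 difference was -0.63 (SE 0.12, adjusted p = 0.00767). These 5 passed whichever array was left out. The Mcm genes, subunits of the replicative helicase, were lower by less secure margins: Mcm5 differed by -0.88 (adjusted p = 0.0196) with adjusted p from 0.0699 to 0.0957 without L1 or L2, and Mcm6 by -0.74 (adjusted p = 0.021) with adjusted p from 0.0549 to 0.0958 without any 1 of S2, L1 and L2. Lig1, the ligase that joins Okazaki fragments, differed by -0.66 (adjusted p = 0.009) with adjusted p = 0.0554 without L1.

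Among the mitosis genes, Melk, a kinase of dividing cells, read 8.45, 8.64 and 8.47 on S1 to S3 and 7.08, 7.29 and 7.83 on L1 to L3, a difference of -1.12 (SE 0.17, adjusted p = 0.0032), the largest of the mitosis genes that passed. Plk1, the kinase that drives entry into mitosis and spindle assembly, read 10.20, 10.18 and 10.14 on S1 to S3 and 8.73, 9.26 and 9.64 on L1 to L3. The 3 S arrays were within 0.1 of each other, while the L arrays spread from 8.73 on L1 to 9.64 on L3, giving -0.96 (SE 0.18, adjusted p = 0.00751). The condensin subunits Ncaph and Ncapd2 differed by -0.96 (adjusted p = 0.00353) and -0.69 (adjusted p = 0.00883). Kif20a and Kif4, motors of the central spindle, differed by -0.89 (adjusted p = 0.00409) and -0.75 (adjusted p = 0.00871). Aurkb, the kinase of the chromosomal passenger complex, differed by -0.82 (adjusted p = 0.00795), the separase gene Espl1 by -0.74 (adjusted p = 0.00615), the cyclin Ccna2 by -0.76 (adjusted p = 0.0101) and Anln, which bundles actin at the cleavage furrow, by -0.83 (adjusted p = 0.00871). Ccnb2, a mitotic cyclin, and Cdc20, which activates the anaphase-promoting complex, differed by -0.73 (adjusted p = 0.0185) and -0.76 (adjusted p = 0.00871), with adjusted p = 0.0697 without L1 and adjusted p = 0.0523 without L1.

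**Figure D2:**
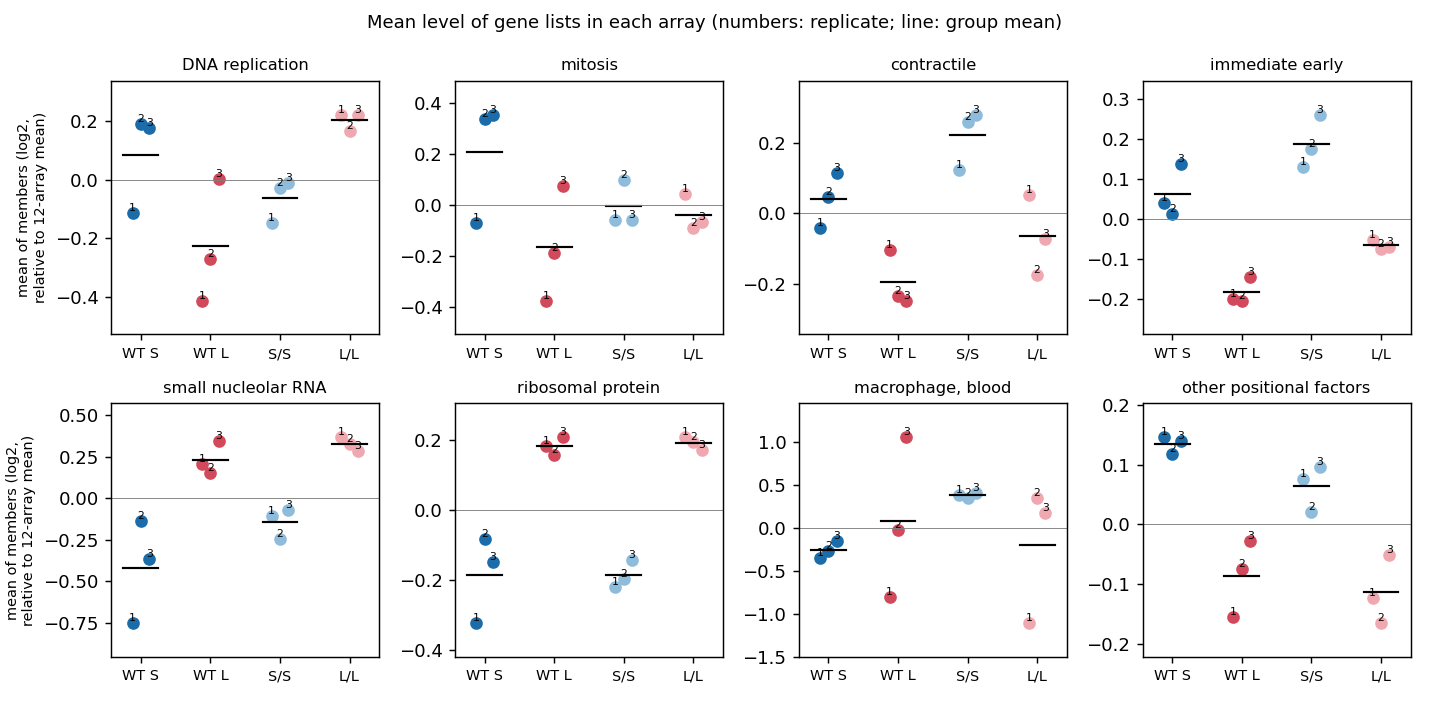
Mean level of the members of a gene list in each of the 12 arrays (log2, relative to the 12-array mean), by group, with the replicate number at each point and a line at the group mean. Replication and mitosis genes lie lowest on L1 among the wild types, the macrophage list runs from -0.80 on L1 to 1.06 on L3, and ribosomal protein and snoRNA genes are higher on every L set array than on any of the S set.

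The E2F and pocket protein list, 25 genes with the retinoblastoma family and its partners, had 4 lower members and none higher. These were 16% of the list, where 5.17% of all genes were lower. The counts were 1 higher and 3 lower without S3 and 2 without L1 and L/L 1 together. E2f7 and E2f8, the atypical E2F factors that repress S-phase genes and are themselves switched on by other E2Fs, read 9.02, 8.80 and 9.02 on S1 to S3 and 7.94, 8.08 and 8.16 on L1 to L3 and 8.64, 8.41 and 8.72 on S1 to S3 and 7.01, 7.39 and 7.76 on L1 to L3. They differed by -0.89 (SE 0.10, adjusted p = 0.000827) and -1.20 (SE 0.17, adjusted p = 0.00214), with no overlap between sets. Tfdp1, the partner of most E2F factors, differed by -0.54 (adjusted p = 0.00654), but its other probe set by -0.21. E2f4, the main E2F of arrested cells, differed by -0.48 (adjusted p = 0.0314) with adjusted p from 0.0646 to 0.148 without any 1 of S2, S3, L1 and L2.

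The starts of 2 of these genes are shown because they carry E2F words and both genes passed whichever array was left out. The sequences are from RefSeq on GRCm38.p6, 250 bases before the annotated start and 50 after, 5′ to 3′, with the E2F word in capitals. Orc1 lies at chr4:108579204-108579503 on the plus strand with its word 27 bases before the start, and E2f7 at chr10:110745189-110745488 on the plus strand with its word 198 bases before.
Orc1: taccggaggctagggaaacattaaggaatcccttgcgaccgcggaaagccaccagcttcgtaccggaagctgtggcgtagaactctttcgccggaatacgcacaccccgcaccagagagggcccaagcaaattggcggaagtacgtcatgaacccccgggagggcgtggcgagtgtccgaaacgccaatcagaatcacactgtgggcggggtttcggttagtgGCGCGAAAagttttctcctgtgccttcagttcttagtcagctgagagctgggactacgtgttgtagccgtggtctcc
E2f7: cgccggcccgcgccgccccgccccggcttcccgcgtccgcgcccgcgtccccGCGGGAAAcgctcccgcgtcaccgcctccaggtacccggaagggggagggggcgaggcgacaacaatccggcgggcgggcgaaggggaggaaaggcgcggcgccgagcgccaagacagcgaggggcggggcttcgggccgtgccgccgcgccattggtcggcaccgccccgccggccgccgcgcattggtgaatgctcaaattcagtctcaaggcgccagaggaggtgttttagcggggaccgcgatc
The words searched, on both strands, were TTTCCCGC, TTTCGCGC, TTTGGCGC and TTTGCCGC. Words of the 2 strands can overlap. At least 1 word was present in 2.32% of 27025 promoters of this length and in 3.08% of the 15563 that belong to measured genes. It was present in 13 of the 42 replication genes with a promoter entry (31%) and in 6 of the 13 that passed (46.2%). Among mitosis genes 5 of 47 held such a word (10.6%). CCAAT was found in 32 of those 47 (68.1%), in 37.9% of all promoters and in 38.3% of those of measured genes. A match is a description of the letters in this window.

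Of 29 genes of the p53 response and CDK inhibitors 6 were higher and none lower, where 3.54% of all genes were higher. The list mean was -0.30, -0.15 and -0.056 on S1 to S3 and 0.084, 0.027 and -0.052 on L1 to L3. S1 was thus lowest, and S3 and L3 were nearly level. A link to the replication and mitosis genes was not tested. The count was 2 without L1 and 1 without L2 or without L1 and L/L 1 together. Pmaip1, the p53 target also called Noxa that promotes apoptosis, read 7.52, 7.56 and 7.64 on S1 to S3 and 8.87, 8.41 and 8.24 on L1 to L3. The Pmaip1 difference was 0.93 (SE 0.18, adjusted p = 0.00791), with no overlap. Cdkn1c, the inhibitor p57 that is expressed from the maternal allele, read 10.32, 10.44 and 10.45 on S1 to S3 and 10.78, 10.99 and 11.01 on L1 to L3. The Cdkn1c difference was 0.52 (SE 0.11, adjusted p = 0.0151), with adjusted p from 0.0551 to 0.0685 without L2 or L3. Trp53inp1, a p53 target tied to autophagy, differed by 0.80 (adjusted p = 0.0309) with adjusted p from 0.0931 to 0.137 without L1 or L2, and the death receptor gene Fas by 0.41 (adjusted p = 0.0248) with adjusted p from 0.0874 to 0.115 without L1 or L2. Gadd45a and Eda2r made up the 6, at 0.39 (adjusted p = 0.037) and 0.61 (adjusted p = 0.0469), with adjusted p from 0.0515 to 0.168 without any 1 of 8 arrays for the first and adjusted p from 0.0524 to 0.193 without any 1 of 10 arrays for the second.

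Fibroblasts keep expressing the Hox genes of the segment or limb level they came from, and the genes at the 5′ end of each cluster, numbered 11 to 13, are those of the distal limb and the tail end. Of 37 Hox genes 5 were lower and 2 higher, where 5.17% and 3.54% of all genes were. The arrays of the sets did not overlap for 11 of the 37, a share near the 27.6% of all genes. The 5 lower ones were all of the groups 11 to 13, and the 2 higher ones were of groups 4 and 6. Counts without 1 array or pair were 1 higher and 4 lower without S3 or without L1, 0 higher and 4 lower without L2, 4 higher and 5 lower without L3 and 0 higher and 3 lower without L1 and L/L 1 together. Hoxa13, a gene of the hand and foot plate, read 8.34, 8.18 and 8.18 on S1 to S3 and 6.75, 7.03 and 7.59 on L1 to L3, with the S arrays close together and the L arrays spread from L1 to L3, a difference of -1.11 (SE 0.18, adjusted p = 0.00409). Hoxd11, Hoxa11 and Hoxc12 differed by -0.90 (adjusted p = 0.00613), -0.61 (adjusted p = 0.00409) and -0.56 (adjusted p = 0.0108). Hoxd13 differed by -1.002 (adjusted p = 0.0328) with adjusted p from 0.0669 to 0.148 without any 1 of S2, S3, L1 and L2. The higher genes were Hoxc6, of the thoracic level, at 8.69, 9.01 and 9.09 on S1 to S3 and 9.70, 9.68 and 9.33 on L1 to L3 (0.64, adjusted p = 0.0231, with adjusted p from 0.0946 to 0.106 without L1 or L2), and Hoxd4 (0.58, adjusted p = 0.0245, with adjusted p from 0.0537 to 0.111 without any 1 of S3, L2 and L3). The median over the 37 was -0.087, 0.012 without S1 and 0.03 with array weights, so the list as a whole had no single direction.

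Among 54 other patterning genes 11 were lower (20.4%) and none higher, with a median of -0.14. The count was 1 higher and 11 lower without S3, 5 without L1, 7 without L2 and 3 without L1 and L/L 1 together. Dlx5, a homeobox gene of the limb bud rim and branchial arches, read 8.23, 8.50 and 8.44 on S1 to S3 and 7.49, 7.10 and 6.999 on L1 to L3. The Dlx5 difference was -1.19 (SE 0.18, adjusted p = 0.0029). Six2, which marks tendon and nephron progenitors, read 9.44, 9.35 and 9.51 on S1 to S3 and 8.10, 8.50 and 8.62 on L1 to L3. The Six2 difference was -1.03 (SE 0.19, adjusted p = 0.00747). Meox2, a somite and limb muscle homeobox gene, read 8.10, 8.52 and 8.32 on S1 to S3 and 6.49, 6.90 and 7.62 on L1 to L3. In Meox2 the L arrays spread over more than 1 log2 unit and still lay below every S array, giving -1.31 (SE 0.24, adjusted p = 0.00636). Foxf1, of splanchnic mesoderm, differed by -0.65 (adjusted p = 0.0032) and its second probe set by -0.79. Zic1, of dorsal neural tube and dorsal dermis, differed by -0.57 (adjusted p = 0.00604). Tbx4, the hindlimb T-box gene, and Msx2, of the limb ridge, differed by -0.96 (adjusted p = 0.00968) and -0.68 (adjusted p = 0.009), with adjusted p = 0.0517 without L1 and adjusted p = 0.0554 without L1. Barx1, Foxf2, Lhx2 and Lhx9 were the other 4, between -0.67 and -0.48. Each lost its call without at least 1 L array, with adjusted p from 0.0713 to 0.0901 without L1 or L2 for Barx1, adjusted p from 0.0565 to 0.111 without any 1 of L1, L2 and L3 for Foxf2, adjusted p from 0.0533 to 0.129 without any 1 of S1, L1 and L2 for Lhx2 and adjusted p from 0.0542 to 0.185 without any 1 of 10 arrays for Lhx9. Zic2, the neighbour in function of Zic1 and chosen after its values were seen, read 8.36, 8.01 and 7.92 on S1 to S3 and 6.89, 6.37 and 6.89 on L1 to L3. The Zic2 difference was -1.38 (SE 0.16, adjusted p = 0.000875).

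Of the smooth muscle and contractile list, genes that fibroblasts switch on as they become myofibroblasts, 7 of 24 were lower and none higher (29.2%), with a median of -0.28. The count was 4 without S3, 2 without L1 or without L1 and L/L 1 together and 3 without L2. Actg2, the enteric smooth muscle actin, read 11.004, 10.93 and 10.88 on S1 to S3 and 10.26, 9.88 and 9.86 on L1 to L3. The Actg2 difference was -0.94 (SE 0.17, adjusted p = 0.00613). Cnn1, calponin, read 11.23, 10.96 and 10.87 on S1 to S3 and 10.34, 10.24 and 10.24 on L1 to L3. The Cnn1 difference was -0.75 (SE 0.14, adjusted p = 0.00763). For both genes the S and L arrays formed groups with no overlap. Srf, the serum response factor that drives this programme through the CArG box, read 9.90, 9.79 and 9.86 on S1 to S3 and 9.25, 9.40 and 9.44 on L1 to L3. The Srf difference was -0.48 (SE 0.10, adjusted p = 0.0112), with adjusted p = 0.0652 without L1. Mylk, the kinase of myosin light chains, differed by -0.52 (adjusted p = 0.0112) with adjusted p from 0.0554 to 0.0608 without L1 or L2. Myl9, a regulatory myosin light chain, differed by -0.42 (adjusted p = 0.0295) with adjusted p from 0.0561 to 0.105 without any 1 of S3, L1, L2 and L3. Actn1 and Smtn completed the 7 at -0.38 (adjusted p = 0.0253) and -0.41 (adjusted p = 0.0454), with adjusted p from 0.062 to 0.0899 without any 1 of S3, L1, L2 and L3 for the first and adjusted p from 0.0539 to 0.19 without any 1 of 9 arrays for the second.

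The promoters of Srf and Myl9 hold a CArG box, the sequence that serum response factor binds, and Srf is printed because it is at once the factor and a member of the list. It is from RefSeq on GRCm38.p6, at chr17:46556113-46556412 on the minus strand, 5′ to 3′, with both CArG boxes in capitals, 82 and 62 bases before the annotated start.
Srf: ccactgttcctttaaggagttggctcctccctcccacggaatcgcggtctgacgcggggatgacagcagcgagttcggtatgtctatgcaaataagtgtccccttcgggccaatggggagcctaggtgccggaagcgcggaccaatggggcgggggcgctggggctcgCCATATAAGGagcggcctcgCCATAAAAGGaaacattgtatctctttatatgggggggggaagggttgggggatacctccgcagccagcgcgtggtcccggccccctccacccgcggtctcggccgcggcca
A CArG box was found in 4 of the 19 contractile genes with a promoter entry (21.1%) and in 2 of the 6 that passed and had an entry. It was found in 1.57% of all promoters and in 1.43% of those of measured genes.

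Of 22 cartilage and bone genes 5 were lower and 1 higher. Counts without 1 array or pair were 0 higher and 5 lower without S1, 1 higher and 2 lower without S2 or without L3, 1 higher and 3 lower without S3, S/S 1, L/L 1, L/L 2 or without L/L 3, 0 higher and 2 lower without L1 or without L2 and 0 higher and 0 lower without L1 and L/L 1 together. Sox9, the master factor of cartilage that also marks tendon and skeletal progenitors, read 10.43, 10.38 and 10.61 on S1 to S3 and 9.54, 9.82 and 9.85 on L1 to L3. The Sox9 difference was -0.74 (SE 0.13, adjusted p = 0.00623). Acan, the core protein of cartilage aggrecan, read 6.64, 6.98 and 6.92 on S1 to S3 and 6.08, 6.13 and 6.22 on L1 to L3. The Acan difference was -0.70 (SE 0.12, adjusted p = 0.00473), while the collagen of cartilage matrix Col2a1 was at 8.75, 8.60 and 8.62 on S1 to S3 and 8.41, 8.48 and 8.32 on L1 to L3 and did not pass (-0.26, adjusted p = 0.159). Alpl, the phosphatase of mineralising bone, differed by -1.16 (adjusted p = 0.0291) with adjusted p from 0.053 to 0.115 without any 1 of S2, L1, L2 and L3. Col11a1, a fibrillar collagen, was the higher one at 0.56 (adjusted p = 0.0288), with adjusted p from 0.0508 to 0.137 without any 1 of S1, L1 and L2. The fifth lower gene, Matn1, differed by -0.37 (adjusted p = 0.0483) with adjusted p from 0.0565 to 0.157 without any 1 of 11 arrays. Of 13 mesothelial and pericyte genes 4 were lower, none higher, and the count was 2 without S3, S/S 2, L1, L3 or without L/L 3 and 1 without L1 and L/L 1 together. Lrrn4, a mesothelial surface protein, and Kcnj8, a potassium channel of pericytes, differed by -0.66 (adjusted p = 0.00411) and -0.57 (adjusted p = 0.00768). The uroplakin genes Upk1b and Upk3b, which mesothelium also expresses, differed by -0.56 (adjusted p = 0.0392) and -0.65 (adjusted p = 0.041), with adjusted p from 0.0551 to 0.138 without any 1 of 6 arrays for the first and adjusted p from 0.0571 to 0.142 without any 1 of 8 arrays for the second.

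Macrophages can persist in fibroblast cultures made from embryos. None of 25 macrophage and blood genes passed (1 lower without L3, and 1 higher without L1 and L/L 1 together), yet they varied more between the 3 L arrays than any other list. Their mean was -0.35, -0.27 and -0.15 on S1 to S3 and -0.80, -0.026 and 1.06 on L1 to L3. L1 was the lowest and L3 the highest of the 6 wild-type arrays. Cd68, a lysosomal protein of macrophages, read 9.46, 9.15 and 9.33 on S1 to S3 and 8.67, 9.79 and 11.27 on L1 to L3, Tyrobp, an adaptor of myeloid receptors, 8.02, 8.39 and 8.34 on S1 to S3 and 8.07, 8.99 and 10.36 on L1 to L3, and Csf1r, the receptor macrophages need to survive, 7.35, 7.75 and 8.04 on S1 to S3 and 7.07, 7.69 and 9.17 on L1 to L3. These 3 were highest on L3 and none of the differences passed, with 0.60 (adjusted p = 0.571), 0.89 (adjusted p = 0.329) and 0.26 (adjusted p = 0.742). Ptprc, the common leukocyte antigen CD45, was at 6.03 to 6.22 on 5 of the wild-type arrays and 7.16 on L3. The median of the list was 0.31, and -0.16 without L3. What this spread contributes to other differences was not tested.

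Markers of other cell types were read within each probe set, since levels of different probe sets cannot be compared. Pecam1 and Cdh5, of endothelium, lay between 5.69 and 6.12 and between 6.12 and 6.53. Emcn, a sialomucin of vessels, was uneven at 6.70, 6.64 and 7.01 on S1 to S3 and 9.06, 8.19 and 6.97 on L1 to L3 and did not pass (1.29, adjusted p = 0.0659). The 1 endothelial gene of 17 that passed was Tek, the angiopoietin receptor, at 0.58 (adjusted p = 0.0134) with adjusted p = 0.0534 without L3, and the counts were 1 higher and 1 lower without S1 or without L3 and 0 without L1 and L/L 1 together. Erg, an endothelial transcription factor of that list, was at 8.08, 8.56 and 8.62 on S1 to S3 and 7.41, 7.51 and 8.16 on L1 to L3 and did not pass (-0.72, adjusted p = 0.0742). Epcam and Cdh1, of epithelium, lay between 5.45 and 5.82 and between 6.08 and 6.20, and none of 17 epithelial genes passed (1 higher without S3 or without L/L 3). None of 25 skeletal and cardiac muscle genes passed (1 lower without S3 or without S/S 2). S1 read highest of the wild-type arrays for several of these low genes, for example Krt5 at 7.16, 6.48 and 6.21 on S1 to S3 and 6.47, 6.42 and 6.15 on L1 to L3 and not called. Of 18 adipocyte genes 1 was lower, Scd1, a fatty acid desaturase (-0.36, adjusted p = 0.0422, with adjusted p from 0.0526 to 0.156 without any 1 of 10 arrays), of 25 germline genes 1 was higher, and of 14 retrotransposon-related genes none passed (1 lower without S3). The adipocyte counts were 1 higher and 1 lower without S1, 0 without S2, S3, S/S 2, S/S 3, L2, L3, L/L 1, L/L 2 or without L/L 3, 1 higher and 0 lower without L1 and 2 higher and 0 lower without L1 and L/L 1 together, and the germline counts 0 higher and 1 lower without S2 and 0 without L1, L2 or without L1 and L/L 1 together. Of 21 neural genes Ncam1 and Gfap passed as lower, at -0.34 (adjusted p = 0.0395) and -0.67 (adjusted p = 0.0486), with adjusted p from 0.055 to 0.134 without any 1 of 9 arrays for the first and adjusted p from 0.0638 to 0.135 without any 1 of 9 arrays for the second, and the count was 4 without S1, 1 without S3, S/S 1 or without S/S 3 and 0 without S/S 2, L1, L2, L3, L/L 1, L/L 2, L/L 3 or without L1 and L/L 1 together.

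Structural matrix genes did not move as one. Of 44, 3 were higher and 3 lower (13.6%, where 8.71% of all genes passed), and the median was -0.002. The counts were 1 higher and 2 lower without L1 or without L1 and L/L 1 together and 1 higher and 3 lower without L2, L3, L/L 1, L/L 2 or without L/L 3. Ogn, osteoglycin, read 10.75, 11.43 and 11.45 on S1 to S3 and 12.51, 12.43 and 12.16 on L1 to L3. The Ogn difference was 1.16 (SE 0.19, adjusted p = 0.00386). Fmod, a member of the same small proteoglycan family, was among the largest differences in the other direction. Dcn, decorin, of that family as well, was higher by 0.35 (adjusted p = 0.0452) with adjusted p from 0.0605 to 0.174 without any 1 of 9 arrays, and Prelp lower, at -0.75 (adjusted p = 0.0231) with adjusted p = 0.11 without L1. Mfap5, a component of elastic microfibrils, read 10.70, 10.73 and 10.70 on S1 to S3 and 10.17, 9.45 and 9.57 on L1 to L3, with S arrays within 0.03 of one another and every L array below them, a difference of -0.98 (SE 0.16, adjusted p = 0.00437). Vcan, the large proteoglycan versican, differed by 0.49 (adjusted p = 0.0483) with adjusted p from 0.0614 to 0.134 without any 1 of 8 arrays. The major collagens did not pass: Col1a1 was at 12.22, 12.59 and 12.79 on S1 to S3 and 13.06, 12.92 and 12.998 on L1 to L3 (0.46, adjusted p = 0.0828) and Col3a1 at 10.57, 11.09 and 11.06 on S1 to S3 and 11.29, 11.13 and 11.30 on L1 to L3 (0.33, adjusted p = 0.241), with S1 the lowest array in both. Of 25 proteases and inhibitors 2 were lower (8%, where 5.17% of all genes were). The count was 4 without S1 and 1 without L1 or without L1 and L/L 1 together. Mmp9, gelatinase B, read 8.93, 8.84 and 9.18 on S1 to S3 and 7.78, 7.80 and 7.57 on L1 to L3. The Mmp9 difference was -1.27 (SE 0.15, adjusted p = 0.00115). Mmp19 differed by -0.89 (adjusted p = 0.0114) with adjusted p = 0.0632 without L1. Of the 18 fibroblast identity genes 1 was higher (Dcn) and 1 lower (11.1% in all). The lower one was Thy1, a surface glycoprotein that marks fibroblast subsets, at 12.36, 12.10 and 12.26 on S1 to S3 and 11.55, 11.93 and 11.78 on L1 to L3 (-0.49, SE 0.11, adjusted p = 0.0201, with adjusted p = 0.104 without L1). Their counts were 1 higher and 2 lower without S1, 0 higher and 1 lower without S2, S/S 2, L2, L3, L/L 1, L/L 2 or without L/L 3 and 0 higher and 0 lower without L1 or without L1 and L/L 1 together.

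**Figure D3:**
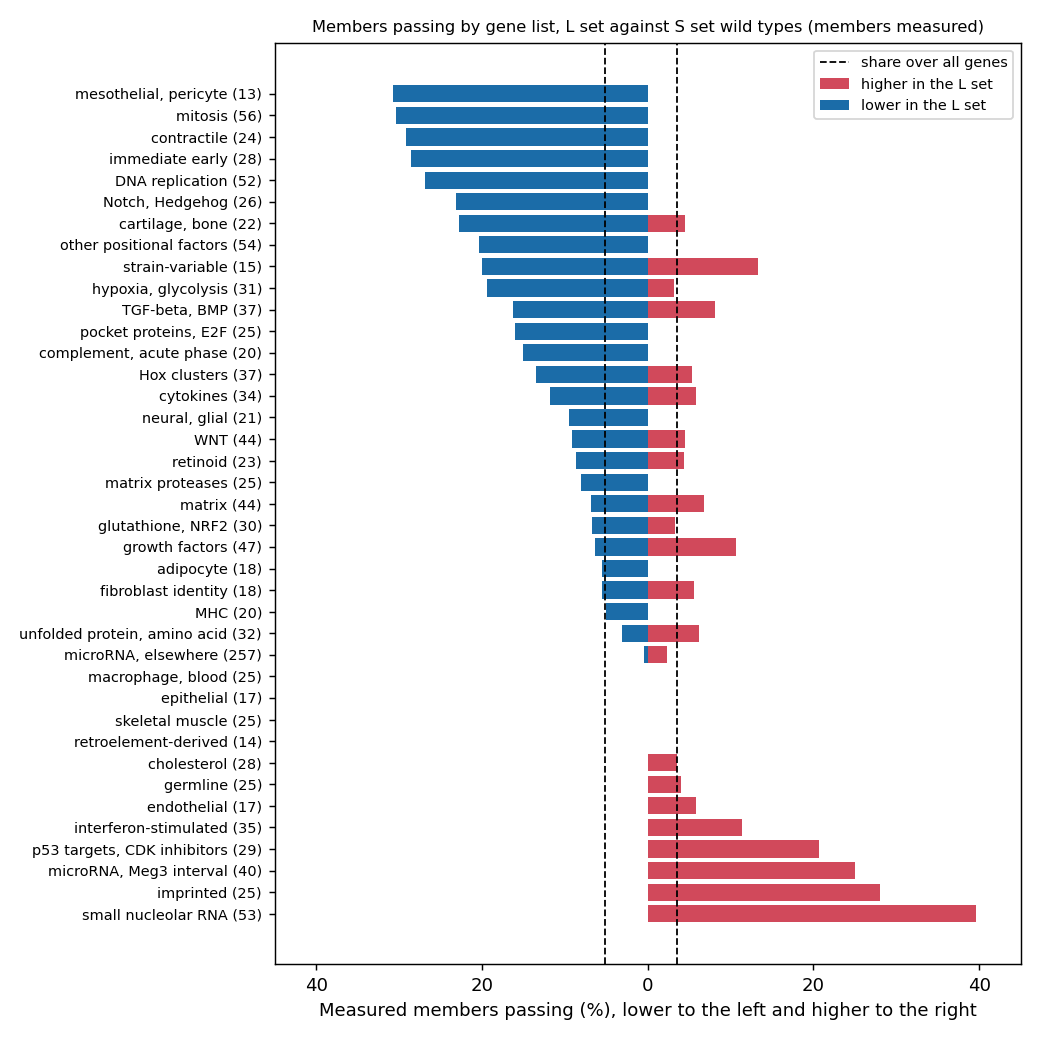
Percent of the measured members of each gene list that passed, lower in the L set to the left and higher to the right, with the number measured in brackets and dashed lines at the shares over all genes (3.54% higher, 5.17% lower). Mitosis (30.4%), contractile (29.2%) and immediate-early (28.6%) genes extend furthest to the left among the plotted lists of more than 20 members, and snoRNA (39.6%) and imprinted genes (28%) furthest to the right among the lists plotted, which leave out the ribosomal proteins.

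In the Notch and Hedgehog list 6 of 26 were lower and none higher, with a median of -0.21 and a count of 1 without L1, L2 or without L1 and L/L 1 together. Heyl, a repressor that Notch switches on, read 8.64, 8.59 and 8.65 on S1 to S3 and 7.49, 7.55 and 7.92 on L1 to L3. The Heyl difference was -0.97 (SE 0.16, adjusted p = 0.00378). The receptor Notch1 differed by -0.67 (adjusted p = 0.0093) with adjusted p from 0.0505 to 0.0528 without L1 or L2, and Hey1, another Notch target, by -1.07 (adjusted p = 0.0219) with adjusted p from 0.0862 to 0.107 without L1 or L2. On the Hedgehog side Hhip, a decoy receptor and target of the pathway, differed by -0.51 (adjusted p = 0.0208), and the transducer Smo and coreceptor Boc by -0.45 (adjusted p = 0.0468) and -0.45 (adjusted p = 0.0454). These 3 came with adjusted p from 0.0609 to 0.104 without L1 or L2, adjusted p from 0.0642 to 0.136 without any 1 of 9 arrays and adjusted p from 0.0526 to 0.2 without any 1 of 9 arrays, in that order.

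Of 44 WNT genes 4 were lower and 2 higher (13.6%, where 8.71% of all genes passed). The counts were 2 higher and 2 lower without S/S 2, L/L 1 or without L/L 2, 0 higher and 2 lower without L1 or without L1 and L/L 1 together, 1 higher and 2 lower without L2 and 0 higher and 4 lower without L3. Nkd2, an intracellular antagonist of Dishevelled, read 8.52, 8.60 and 8.79 on S1 to S3 and 7.28, 7.29 and 7.67 on L1 to L3, a gap of more than 0.8 between the sets and a difference of -1.22 (SE 0.13, adjusted p = 0.000753). Rspo1, a secreted agonist, read 8.70, 8.36 and 8.51 on S1 to S3 and 7.31, 7.61 and 7.84 on L1 to L3. The Rspo1 difference was -0.94 (SE 0.14, adjusted p = 0.0032). Its receptor Lgr4 went the other way, at 1.04 (adjusted p = 0.0315), with S1 more than 1 log2 unit below the rest of its set and adjusted p from 0.0712 to 0.114 without any 1 of L1, L2 and L3. The antagonist Dkk2 was higher by 0.53 (adjusted p = 0.0229) with adjusted p from 0.0808 to 0.0958 without L1 or L3. Sfrp1, a secreted antagonist, and Ror2, a receptor of noncanonical WNTs, were lower, at -0.48 (adjusted p = 0.0433) and -0.47 (adjusted p = 0.0483), with adjusted p from 0.0512 to 0.129 without any 1 of 9 arrays for the first and adjusted p from 0.0614 to 0.208 without any 1 of 9 arrays for the second.

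Of 37 TGF-beta and BMP genes 6 were lower and 3 higher, and the counts were 2 higher and 3 lower without S2, 4 higher and 3 lower without S3, 1 higher and 1 lower without L1, 0 higher and 2 lower without L2, 1 higher and 5 lower without L3, 1 higher and 4 lower without L/L 1 or without L/L 2 and 1 higher and 0 lower without L1 and L/L 1 together. Tgfbi, a matrix protein that TGF-beta induces, read 11.38, 11.31 and 11.47 on S1 to S3 and 9.94, 10.66 and 11.004 on L1 to L3. The Tgfbi difference was -0.86 (SE 0.20, adjusted p = 0.0187). The ligands Tgfb1 and Tgfb3 and the receptor Tgfbr2 were lower, at -0.69 (adjusted p = 0.0368), -0.42 (adjusted p = 0.0397) and -0.46 (adjusted p = 0.0252). Id1 and Id2, the classic BMP targets, were higher by 0.42 (adjusted p = 0.0359) and 0.53 (adjusted p = 0.0484), and Skil, a nuclear inhibitor of Smads, by 0.73 (adjusted p = 0.0288). The members that passed thus went both ways, and in the 6 wild-type arrays alone none of the 37 passed. Of the 9 that passed only Tgfbi passed whichever array was left out. The BMP antagonist Chrdl1 was lower, at -0.59 (adjusted p = 0.0163) with adjusted p = 0.0752 without L1. For Tgfbr2 the range was adjusted p from 0.0601 to 0.107 without any 1 of S3, L1 and L2, and for Skil adjusted p from 0.0555 to 0.119 without any 1 of L1, L2 and L3. For Tgfb1, Tgfb3, Id1, Id2 and the ligand Gdf10 (-0.74, adjusted p = 0.0378) it reached 0.163, 0.15, 0.132, 0.17 and 0.154.

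Growth factor genes split. Of 47, 5 were higher and 3 lower, with counts of 5 higher and 6 lower without S1, 3 higher and 2 lower without L1 or without L2, 3 higher and 3 lower without L3, 5 higher and 5 lower without L/L 2 and 1 higher and 2 lower without L1 and L/L 1 together. Kitl, the ligand of the Kit receptor, read 5.98, 6.96 and 6.93 on S1 to S3 and 7.64, 7.86 and 7.69 on L1 to L3. The Kitl difference was 1.11 (SE 0.22, adjusted p = 0.009). Angpt2, which loosens vessel walls through Tek, read 6.97, 7.17 and 7.15 on S1 to S3 and 7.87, 7.94 and 8.03 on L1 to L3. The Angpt2 difference was 0.85 (SE 0.13, adjusted p = 0.00308). Met, the receptor of hepatocyte growth factor, differed by 0.79 (adjusted p = 0.00843). In each of these the 3 L arrays lay above the 3 S arrays. Fgf9 read 7.69, 7.72 and 7.63 on S1 to S3 and 7.15, 7.02 and 6.76 on L1 to L3 and Artn, a ligand of the GDNF family, 7.24, 7.05 and 7.16 on S1 to S3 and 6.54, 6.44 and 6.40 on L1 to L3. Both were lower on every L array, by -0.70 (SE 0.11, adjusted p = 0.00346) and -0.69 (SE 0.12, adjusted p = 0.00473). Igf1 and Fgf10, growth factors of mesenchyme, were higher by 0.47 (adjusted p = 0.0192) and 0.54 (adjusted p = 0.035), and Nrg1 lower, at -0.42 (adjusted p = 0.0212), with adjusted p from 0.058 to 0.0744 without any 1 of L1, L2 and L3 for Igf1, adjusted p from 0.0531 to 0.144 without any 1 of 5 arrays for Fgf10 and adjusted p from 0.0554 to 0.0837 without any 1 of L1, L2 and L3 for Nrg1. Of 23 retinoid genes 13% passed, where 8.71% of all genes did. Rara, a retinoic acid receptor, and Aldh1a2, which makes retinoic acid, were lower, at -0.46 (adjusted p = 0.0242) and -0.67 (adjusted p = 0.025). Dhrs3, which converts retinal back to retinol, was higher by 0.98 (adjusted p = 0.0337). The counts were 0 higher and 4 lower without S1, 0 higher and 1 lower without S2, 1 higher and 1 lower without S3, 1 higher and 0 lower without L1 and 0 higher and 0 lower without L2 or without L1 and L/L 1 together. The 3 came with adjusted p from 0.0595 to 0.119 without any 1 of S3, L1 and L2, adjusted p from 0.057 to 0.111 without any 1 of S2, S3, L1 and L2 and adjusted p from 0.0562 to 0.152 without any 1 of S1, S2, L1 and L2.

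Immediate-early genes, which serum switches on within minutes, were lower: 8 of 28 and none higher (28.6%), with a median of -0.19. The count was 5 without S3, S/S 2, L2, L/L 1 or without L/L 3, 3 without L1, 4 without L3 and 0 without L1 and L/L 1 together. Egr2 read 7.94, 8.22 and 8.52 on S1 to S3 and 7.35, 7.17 and 7.57 on L1 to L3. The Egr2 difference was -0.87 (SE 0.16, adjusted p = 0.00751). Fosl1, the AP-1 subunit Fra-1, differed by -0.66 (adjusted p = 0.00871), and Zfp36, which triggers decay of cytokine RNAs, by -0.56 (adjusted p = 0.00672). These 3 transcriptional and RNA-decay regulators passed whichever array was left out. Jund, an AP-1 subunit of resting cells, differed by -0.59 (adjusted p = 0.0105) with adjusted p = 0.0616 without L1, and the orphan receptor gene Nr4a2 by -0.58 (adjusted p = 0.0206) with adjusted p from 0.063 to 0.102 without L1 or L3. Egr1, Myc and Nr4a1 were lower, at -0.37 (adjusted p = 0.0482), -0.43 (adjusted p = 0.0404) and -0.49 (adjusted p = 0.0483), with adjusted p reaching 0.191, 0.128 and 0.202 when 1 array was removed.

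Of 31 hypoxia and glycolysis genes 6 were lower and 1 higher. Counts without 1 array or pair were 2 higher and 4 lower without S3, 1 higher and 3 lower without L1 and 1 higher and 2 lower without L2 or without L1 and L/L 1 together. Egln3, the oxygen sensor PHD3, read 8.23, 7.89 and 8.18 on S1 to S3 and 7.11, 7.19 and 7.24 on L1 to L3. The Egln3 difference was -0.92 (SE 0.14, adjusted p = 0.0029). Slc2a3, a high-affinity glucose transporter, read 7.90, 8.06 and 8.27 on S1 to S3 and 7.18, 7.05 and 7.24 on L1 to L3. The Slc2a3 difference was -0.92 (SE 0.16, adjusted p = 0.00604). Adm, adrenomedullin, a hypoxia target that relaxes vessels, went the other way at 8.44, 8.78 and 8.70 on S1 to S3 and 9.56, 9.58 and 9.33 on L1 to L3 (0.85, SE 0.13, adjusted p = 0.00326). The list thus held targets of opposite sign. Slc2a1, the ubiquitous glucose transporter, Ndrg1 and Car9, a carbonic anhydrase, were lower, at -0.58 (adjusted p = 0.0167), -0.47 (adjusted p = 0.00988) and -0.54 (adjusted p = 0.0246), with adjusted p from 0.0623 to 0.0657 without L1 or L2 for Slc2a1, adjusted p = 0.0537 without L2 for Ndrg1 and adjusted p from 0.0658 to 0.0958 without any 1 of S3, L1, L2 and L3 for Car9.

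Of 32 genes of the unfolded protein and amino acid responses 2 were higher and 1 lower, and the counts were 2 higher and 4 lower without S1, 4 higher and 0 lower without S2, 3 higher and 0 lower without S3, 2 higher and 2 lower without S/S 1, 2 higher and 0 lower without S/S 2, L/L 1, L/L 2 or without L/L 3 and 1 higher and 0 lower without L1, L2, L3 or without L1 and L/L 1 together. Ddit3, the stress factor CHOP, was at 9.18, 9.26 and 9.19 on S1 to S3 and 9.90, 9.85 and 9.88 on L1 to L3, 6 tightly placed values in 2 groups (0.67, SE 0.11, adjusted p = 0.00499). Nupr1, a stress-induced nuclear protein, differed by 0.58 (adjusted p = 0.0238) with adjusted p from 0.0538 to 0.0884 without any 1 of L1, L2 and L3, and Xbp1 by -0.46 (adjusted p = 0.0372) with adjusted p from 0.0501 to 0.131 without any 1 of 9 arrays. In sterol synthesis 1 of 28 genes passed, Hmgcs1, an early enzyme of the pathway, at 0.73 (adjusted p = 0.0415) with adjusted p from 0.0522 to 0.136 without any 1 of 9 arrays. Its counts were 0 higher and 4 lower without S1, 2 without S2 or without S3 and 0 without S/S 1, S/S 3, L1, L2, L3, L/L 1, L/L 2, L/L 3 or without L1 and L/L 1 together. Its mean was -0.39, 0.04 and 0.15 on S1 to S3 and -0.019, 0.011 and 0.003 on L1 to L3. Of 30 redox and glutathione genes 2 were lower and 1 higher: the glutathione transferase Gstm6 (-1.15, adjusted p = 0.0149, with adjusted p from 0.0664 to 0.0713 without L1 or L2), the extracellular superoxide dismutase Sod3 (-0.74, adjusted p = 0.0156, with adjusted p from 0.0512 to 0.0838 without L1 or L2) and Mgst3 (0.74, adjusted p = 0.021, with adjusted p from 0.0747 to 0.0837 without L2 or L3). Counts for that list were 1 higher and 4 lower without S1 or without S3, 1 higher and 0 lower without L1 or without L1 and L/L 1 together, 0 higher and 0 lower without L2 and 0 higher and 2 lower without L3.

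Immune genes gave few stable calls. Of 34 cytokine and chemokine genes 4 were lower and 2 higher (17.6%, where 8.71% of all genes passed). The counts were 2 higher and 2 lower without S/S 3, L2 or without L/L 1, 1 higher and 3 lower without L1 and 1 higher and 1 lower without L1 and L/L 1 together. Cxcl10, an interferon-induced chemokine, read 8.20, 7.70 and 8.30 on S1 to S3 and 7.13, 7.26 and 7.03 on L1 to L3. The Cxcl10 difference was -0.93 (SE 0.16, adjusted p = 0.00544). Il18 read 6.47, 6.54 and 6.39 on S1 to S3 and 5.44, 5.68 and 5.94 on L1 to L3 and Il15, which sustains lymphocytes, 5.59, 5.71 and 5.91 on S1 to S3 and 6.59, 6.51 and 6.34 on L1 to L3. These interleukins moved in opposite directions, by -0.78 (SE 0.14, adjusted p = 0.00673) and 0.75 (SE 0.11, adjusted p = 0.0032). Cxcl12, the stromal chemokine that retains blood stem cells, was higher by 0.68 (adjusted p = 0.0128) with adjusted p = 0.0673 without L1. Interferon-stimulated genes had 4 higher of 35 and none lower, with Bst2, tetherin, at 0.86 (adjusted p = 0.0438) and Mx2 at 0.65 (adjusted p = 0.044), with adjusted p from 0.0599 to 0.141 without any 1 of 6 arrays for the first and adjusted p from 0.0557 to 0.161 without any 1 of 9 arrays for the second. Their count was 0 without S1, S/S 3, L2, L3 or without L1 and L/L 1 together, 1 without S3, S/S 1, S/S 2, L1 or without L/L 1 and 2 without L/L 3. H2-DMa, which loads peptide onto MHC class II, was the 1 of 20 antigen presentation genes to pass, at 8.84, 8.56 and 8.94 on S1 to S3 and 7.72, 7.93 and 8.02 on L1 to L3 (-0.89, SE 0.15, adjusted p = 0.00495). Of 20 acute-phase and complement genes 3 were lower, 1 without L1 or without L1 and L/L 1 together. Besides Serpina3n these were Lbp (-0.39, adjusted p = 0.0461, with adjusted p from 0.053 to 0.15 without any 1 of 11 arrays) and Socs3 (-0.70, adjusted p = 0.0117, with adjusted p = 0.0594 without L1), whose other probe set differed by 0.07.

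Genes that often differ between laboratory strains by copy number or insertion formed a small list of 15, of which 2 were higher and 3 lower. The counts were 1 higher and 3 lower without S1, S2, S/S 1, S/S 2, S/S 3, L2, L3 or without L/L 1 and 1 higher and 2 lower without L1 or without L1 and L/L 1 together. Wdfy1, an endosomal adaptor, read 7.54, 7.47 and 7.54 on S1 to S3 and 8.62, 8.60 and 8.58 on L1 to L3, with a spread of under 0.1 within each set and a difference of 1.08 (SE 0.12, adjusted p = 0.000753). Entpd4, a Golgi nucleotidase, read 11.35, 11.39 and 11.56 on S1 to S3 and 10.29, 10.35 and 10.53 on L1 to L3 and Gbp2b, a guanylate-binding protein, 7.26, 7.88 and 7.61 on S1 to S3 and 6.11, 6.14 and 5.94 on L1 to L3. Both were lower on every L array, by -1.04 (SE 0.12, adjusted p = 0.000827) and -1.52 (SE 0.14, adjusted p = 0.000511). Alad, of haem synthesis, differed by -0.64 (adjusted p = 0.0111) with adjusted p = 0.0626 without L1. Mx2, described above with the interferon-stimulated genes, was the other higher member. Apobec3, a cytidine deaminase that restricts retroviruses, is outside this list and was among the 12 largest lower differences. It read 8.84, 8.90 and 8.91 on S1 to S3 and 6.75, 7.15 and 7.50 on L1 to L3. The Apobec3 difference was -1.75 (SE 0.16, adjusted p = 0.000511), but its second probe set by -0.23. The labels name no strain.

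Among small RNA genes those of the Meg3 interval and the snoRNAs had many higher members, and the other microRNA genes few. In mouse the Meg3 interval of chromosome 12 is expressed from the maternal chromosome as long noncoding RNAs that carry a row of snoRNAs and one of the largest groups of microRNAs in the genome. Of its 45 measured genes 13 were higher and none lower (28.9%, where 3.54% of all genes were higher), with a median of 0.27. Without L1, or without L1 and L/L 1, 4 were higher. A probe set for a microRNA or snoRNA gene on this array does not tell the mature RNA from its precursor or host transcript. Meg3 itself, a long noncoding RNA that restrains growth, read 10.51, 10.54 and 10.97 on S1 to S3 and 11.54, 11.42 and 11.35 on L1 to L3. The Meg3 difference was 0.76 (SE 0.16, adjusted p = 0.0108), with adjusted p = 0.0585 without L1. Rian, the host of the snoRNAs, differed by 1.15 (adjusted p = 0.0393) with adjusted p from 0.0524 to 0.166 without any 1 of 7 arrays. DQ267102, a snoRNA gene, read 8.72, 10.88 and 10.44 on S1 to S3 and 11.65, 11.66 and 11.91 on L1 to L3, with S1 far below the rest, and differed by 1.72 (SE 0.39, adjusted p = 0.0176), with adjusted p from 0.0529 to 0.0596 without any 1 of L1, L2 and L3. Rtl1, a retrotransposon-derived gene of the same interval that is expressed from the paternal chromosome, was at 6.70 and 6.81 on average in the S and L sets, and did not pass (0.11, adjusted p = 0.593).

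**Figure D4:**
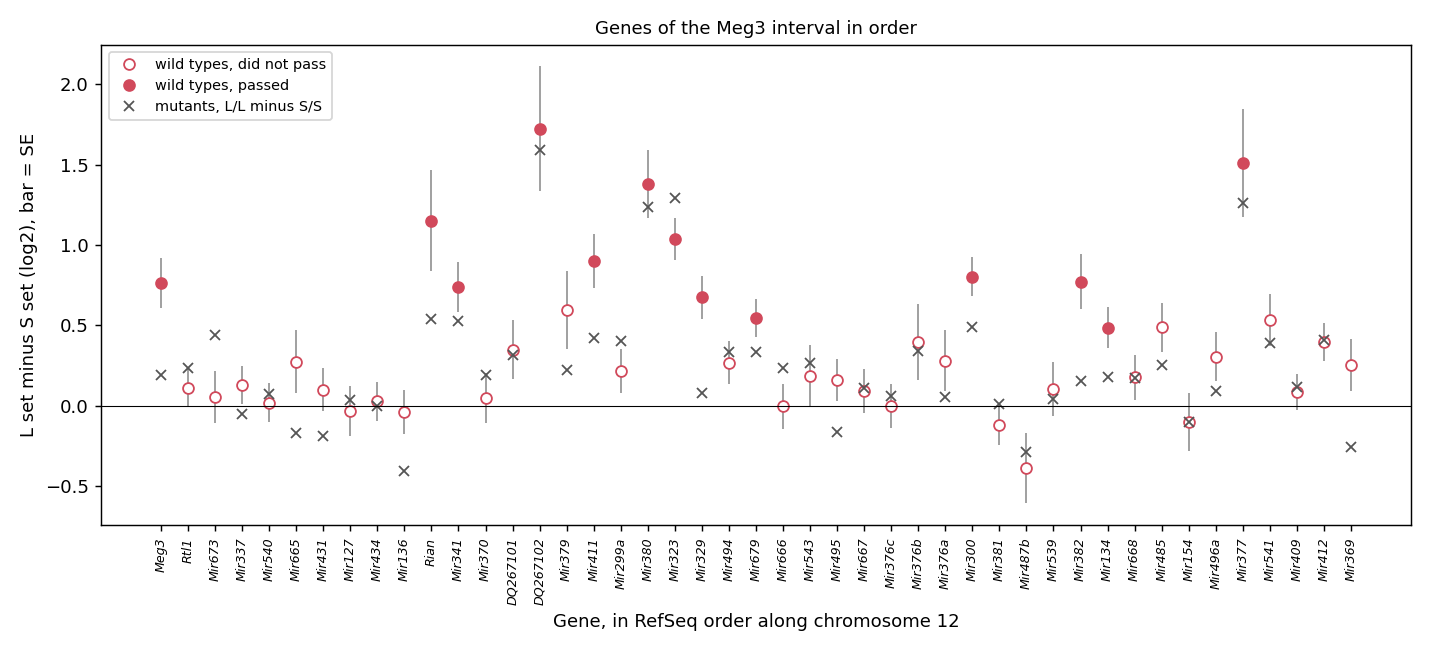
Difference between the wild-type sets (log2, L set minus S set, bars are SE) for the 45 measured genes of the Meg3 interval in their RefSeq order along chromosome 12, with filled points for genes that passed and crosses for the mutant arrays. Of the 45 points 39 lie above 0, and the 13 that passed are scattered from Meg3 to Mir377.

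Of the 40 microRNA genes of the interval 10 passed, and the mature products of the 5 with the largest differences are printed from RefSeq (GRCm38.p6), so that their seeds, the bases that pair with targets, can be compared. The strand is plus, the sequences run 5′ to 3′ and capitals mark the seed, bases 2 to 8.
mmu-miR-377-3p: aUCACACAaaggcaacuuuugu
mmu-miR-377-5p: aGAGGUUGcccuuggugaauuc
mmu-miR-380-3p: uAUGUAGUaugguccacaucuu
mmu-miR-380-5p: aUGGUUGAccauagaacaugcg
mmu-miR-323-3p: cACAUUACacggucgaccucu
mmu-miR-323-5p: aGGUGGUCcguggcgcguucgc
mmu-miR-411-3p: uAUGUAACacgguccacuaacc
mmu-miR-411-5p: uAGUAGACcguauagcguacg
mmu-miR-300-3p: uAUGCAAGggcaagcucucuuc
mmu-miR-300-5p: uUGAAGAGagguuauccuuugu
The 20 mature microRNAs of the 10 genes have 20 distinct seeds, so no 2 of them share a seed. Within the interval miR-411-3p shares its seed AUGUAAC with miR-379-3p, whose gene did not pass. Mir380 read 4.01, 4.49 and 4.71 on S1 to S3 and 6.06, 5.49 and 5.79 on L1 to L3 and Mir323 5.89, 6.22 and 6.21 on S1 to S3 and 7.35, 7.01 and 7.08 on L1 to L3. Every L array lay above every S array in both, with differences of 1.38 (SE 0.21, adjusted p = 0.00321) and 1.04 (SE 0.13, adjusted p = 0.00148). Mir411 read 4.66, 4.64 and 4.52 on S1 to S3 and 5.84, 5.25 and 5.42 on L1 to L3. The Mir411 difference was 0.90 (SE 0.17, adjusted p = 0.00737), and Mir300 by 0.80 (SE 0.12, adjusted p = 0.0029). These 4 passed whichever array was left out. Y-linked genes read 3.82 to 5.51 on the 10 arrays that read as female. The S values of Mir380 and Mir411 and the S mean of Mir300 (5.04) lay in that range, so these are low readings. Of the 40, 22 had a mean of at least 6 over the 12 arrays, and in the fit to such genes 8 of them were higher. Mir377 read 5.43, 6.52 and 7.08 on S1 to S3 and 7.78, 7.73 and 8.05 on L1 to L3. The Mir377 difference was 1.51 (SE 0.34, adjusted p = 0.017), with adjusted p from 0.0541 to 0.0594 without L1 or L3. Mir341, Mir382, Mir329, Mir679 and Mir134 differed by 0.74 (adjusted p = 0.0128), 0.77 (adjusted p = 0.0152), 0.67 (adjusted p = 0.00974), 0.55 (adjusted p = 0.0147) and 0.49 (adjusted p = 0.0322), with adjusted p from 0.0512 to 0.0713 without L1 or L2 for Mir341, adjusted p from 0.0512 to 0.071 without L1 or L3 for Mir382, adjusted p = 0.0585 without L1 for Mir329, adjusted p = 0.082 without L1 for Mir679 and adjusted p from 0.0505 to 0.112 without any 1 of 7 arrays for Mir134. The 30 that did not pass included Mir127, which lies opposite Rtl1, at -0.032 (adjusted p = 0.919).

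Of the 257 microRNA genes elsewhere 6 were higher and 1 lower (2.72%), so the share that passed was below that of all genes. Counts without 1 array or pair were 12 higher and 2 lower without S1, 6 higher and 2 lower without S2, 3 higher and 0 lower without L1, 4 higher and 0 lower without L2, 6 higher and 0 lower without L3 and 2 higher and 0 lower without L1 and L/L 1 together. Mir423, Mirlet7f-1 and Mir196a-1, the last within the Hox clusters, differed by 0.62 (adjusted p = 0.00484), 0.70 (adjusted p = 0.00409) and 0.74 (adjusted p = 0.00635) and passed whichever array was left out. Mir218-1, from an intron of Slit2, differed by 1.42 (adjusted p = 0.0147) with adjusted p from 0.0551 to 0.0754 without L1 or L2. Mir542 was the lower one at -0.53 (adjusted p = 0.0242), with adjusted p from 0.0594 to 0.0877 without any 1 of L1, L2 and L3.

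Imprinted genes are expressed from 1 parental copy, and many of them regulate embryonic growth. Of 25 in the list 7 were higher and none lower. Among the 7 were Meg3, Rian, Cdkn1c and Dcn, which are also counted in lists above. The count was 1 without L1 or without L2, 3 without L3, 4 without L/L 1 or without L/L 2 and 0 without L1 and L/L 1 together. Peg3, a zinc finger gene of the paternal copy, read 10.87, 11.04 and 11.03 on S1 to S3 and 11.62, 11.52 and 11.36 on L1 to L3. The Peg3 difference was 0.52 (SE 0.12, adjusted p = 0.0198), with adjusted p from 0.0736 to 0.0989 without L1 or L2. Plagl1, a growth-restraining zinc finger factor that regulates other imprinted genes, read 10.98, 11.06 and 11.17 on S1 to S3 and 11.55, 11.57 and 11.55 on L1 to L3. The Plagl1 difference was 0.49 (SE 0.12, adjusted p = 0.0268), with adjusted p from 0.0515 to 0.094 without any 1 of S2, L1, L2 and L3. Impact differed by 0.64 (adjusted p = 0.0379) with adjusted p from 0.0527 to 0.144 without any 1 of 7 arrays.

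Small nucleolar RNAs guide the chemical modification of ribosomal RNA, and most lie in introns of genes for ribosomal and other abundant proteins. Of 53 snoRNA genes 21 were higher and none lower (39.6%), with a median of 0.53. The count was 11 without L1, 13 without L2, 12 without L3 and 9 without L1 and L/L 1 together. Snord104 read 8.60, 9.93 and 9.64 on S1 to S3 and 10.84, 11.02 and 11.34 on L1 to L3, a difference of 1.68 (SE 0.26, adjusted p = 0.00329). Snord14e read 7.03, 7.42 and 6.96 on S1 to S3 and 8.54, 8.29 and 8.52 on L1 to L3. The Snord14e difference was 1.32 (SE 0.14, adjusted p = 0.000753), and Snord42a by 1.35 (SE 0.17, adjusted p = 0.00141). Snord49b, Snora69, Snord52 and Snora33 differed by 1.58 (adjusted p = 0.00691), 1.44 (adjusted p = 0.00542), 1.44 (adjusted p = 0.00214) and 1.11 (adjusted p = 0.00409). In these 7 genes every L array lay above every S array, and S1 was the lowest array in 6 of them. Snora31 differed by 1.60 (adjusted p = 0.0122) with adjusted p = 0.0593 without L2.

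Of 58 ribosomal protein genes 20 were higher and none lower (34.5%), with a median of 0.31. The count was 7 without L1, 10 without L2, 9 without L3 and 5 without L1 and L/L 1 together. Rpl24 read 10.27, 10.65 and 10.40 on S1 to S3 and 11.44, 11.39 and 11.41 on L1 to L3. The Rpl24 difference was 0.98 (SE 0.11, adjusted p = 0.000753). Rps29 read 9.50, 10.39 and 10.10 on S1 to S3 and 11.10, 11.08 and 11.20 on L1 to L3. The Rps29 difference was 1.13 (SE 0.17, adjusted p = 0.0032). Rplp1, of the ribosomal stalk, read 12.46, 12.76 and 12.65 on S1 to S3 and 13.38, 13.30 and 13.38 on L1 to L3. The Rplp1 difference was 0.73 (SE 0.10, adjusted p = 0.00241). Values within the L set lay within 0.12 of each other in these 3 genes. Rpl7, Rps9, Rpl34 and Rps21 differed by 1.08 (adjusted p = 0.00346), 0.84 (adjusted p = 0.0089), 0.87 (adjusted p = 0.00154) and 0.76 (adjusted p = 0.0087). Processed copies of ribosomal protein genes share sequence with them, and the probe sets of 1 gene mostly gave like values, for example 0.74 to 1.08 over the 4 of Rpl7. Of 30 ribosomal, proteasome, mitochondrial and other genes often used as controls, some of which are also in the ribosomal list, 6 were higher and none lower, among them Cox4i1 of cytochrome oxidase at 0.81 (adjusted p = 0.00496), and the count was 6 higher and 1 lower without S1, 2 without L1 or without L1 and L/L 1 together and 3 without L3. The mean of the ribosomal list was -0.32, -0.083 and -0.15 on S1 to S3 and 0.18, 0.16 and 0.21 on L1 to L3, and of the snoRNA list -0.75, -0.14 and -0.36 on S1 to S3 and 0.21, 0.15 and 0.34 on L1 to L3. S1, the array with the narrowest spread, was lowest in both. Without it the counts were 19 and 21, and the part of RNA quality in these values was not tested.

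The same sets can be compared in the mutant arrays, none of which enters the wild-type contrast, though Rb1 genotype differs there too and the 4 groups share 1 estimate of spread. Between L/L and S/S 1882 genes passed (9.44%), 735 higher (3.69%) and 1147 lower (5.75%). That count was 3790 without S1, 1105 without S/S 2, 1196 without S/S 3, 733 without L/L 1, 777 without L/L 2 and 1206 without L/L 3. Of the 1736 wild-type genes 1647 had the same sign in the mutants (94.9%, against 64.7% of all genes), and 902 passed there with that sign, which is 52% of the wild-type list and 47.9% of the mutant list. All 6 arrays of the L set lay beyond all 6 of the S set for 1237 of the 1736, 467 above and 770 below, and for 2305 of all genes (11.6%, with 4.81% above and 6.75% below). For 1729 of the 1736 the wild-type arrays were already apart, so this share cannot be set against that of all genes.

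**Figure D5:**
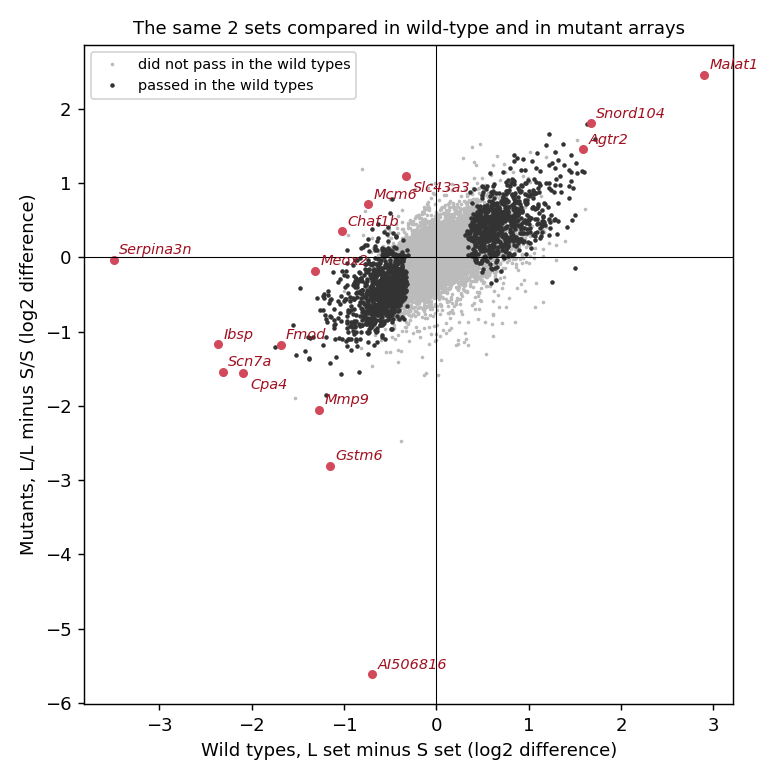
Each point is a gene, with the difference between the wild-type sets on the horizontal axis and the difference between L/L and S/S on the vertical axis (log2), dark where the gene passed in the wild types and red where the gene is named. Malat1 lies near 2.90 and 2.46, while Serpina3n lies at -3.49 and -0.03.

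Malat1 differed by 2.46 in the mutants (8.92, 9.78 and 8.80 in S/S and 11.98, 11.65 and 11.24 in L/L) beside 2.90 in the wild types. Agtr2 differed by 1.45 (adjusted p = 0.00116), Zic2 by -1.36 (adjusted p = 0.000736), Mmp9 by -2.05 (adjusted p = 4.49e-05), Six2 by -1.10 (adjusted p = 0.00426), Sox9 by -0.76 (adjusted p = 0.00404) and Heyl by -1.12 (adjusted p = 0.00142). These differences had the same sign in wild types and mutants, and the genes were picked with their values known. Other genes named above differed less there: Meox2 by -0.18 (adjusted p = 0.753), Hpse2 by -0.41 (adjusted p = 0.399) and Cnn1 by -0.17 (adjusted p = 0.574). Meg3 differed by 0.19 (adjusted p = 0.564), and Olfr1316 had the other sign at -0.15 (adjusted p = 0.804). Lists with calls in a single direction in both comparisons included the ribosomal proteins (20 higher in wild types and 19 in mutants), snoRNAs (21 and 19), contractile genes (7 lower and 7) and immediate-early genes (8 lower and 7). Positional genes had 11 lower in the wild types and 7 in the mutants, and Notch and Hedgehog genes 6 and 5. The microRNA and other genes of the Meg3 interval had 13 higher in the wild types and 6 in the mutants. Imprinted genes had 7 higher in the wild types, and 1 higher and 1 lower in the mutants.

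Cell cycle genes gave different counts. Replication genes had 14 lower in the wild types and 12 higher in the mutants, with medians of -0.36 and 0.22. The mean level was -0.15, -0.029 and -0.01 on the S/S arrays and 0.22, 0.17 and 0.22 on the L/L arrays. Mcm6, for instance, differed by -0.74 in the wild types and 0.72 (adjusted p = 0.0208) in the mutants, and Chaf1b by -1.02 and 0.35 (adjusted p = 0.214). Mitosis genes had 17 lower in the wild types and 2 higher in the mutants, with medians of -0.38 and -0.093. Sterol synthesis genes had 1 higher of 28 in the wild types and 7 in the mutants. Whether these lists differ between the genotypes was not tested as a list, and no replication or mitosis gene passed the test of the difference itself.

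That test, of the mutant difference minus the wild-type difference, passed for 3 of 19938 genes (0.015%), with 1296 at an unadjusted p under 0.05 (6.5%). Serpina3n, at 8.42, 8.46 and 8.59 in S/S and 7.98, 8.36 and 9.03 in L/L, differed by -0.033 (adjusted p = 0.967) in the mutants, and the difference between the differences was 3.46. AI506816, an uncharacterised gene, read 5.36, 5.29 and 5.82 on S1 to S3 and 4.50, 4.76 and 5.15 on L1 to L3. In the mutants it read 10.32, 10.07 and 10.18 in S/S and 4.56, 4.40 and 4.77 in L/L. The differences were -0.69 and -5.61. Apart from S3, the wild-type and L/L values lay within the 3.82 to 5.51 of Y-linked genes on arrays that read as female. The -0.69 is therefore a difference between low readings. Slc43a3, a purine transporter, differed by -0.33 in the wild types and 1.09 in the mutants.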

How the data were processed

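RNA of 12 mouse embryo fibroblast samples was extracted with TRIzol, re-precipitated, labelled as sense-strand cDNA and hybridised to 1 array each, per the labels' protocols. The authors deposited log2 expression values made by robust multiarray averaging in Partek, per the series' design text. The Partek version and the genome build of the probe annotation are not given in the sources used here. Of 35556 probe sets, 21789 had 1 gene symbol, 1621 several and 12146 none. Each of 19938 genes was represented by its probe set of highest mean over the 12 arrays, and 999 genes had more than 1. Deposited values ran from 2.43 to 14.67, and no further normalization was done.

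Groups came from the sample titles. limma 3.58.1 in R 4.3.3 fitted 4 group means to all 12 arrays, with Benjamini-Hochberg adjustment over all genes, and the code was tested on simulated data. The contrasts were L minus S wild types, L/L minus S/S, and their difference. Genes were named as the 12 largest differences each way that passed without overlap of arrays, up to 5 list members of smallest p, all Hox genes that passed, and checks (sex chromosome genes, Rb1, fibroblast identity and cell type markers). Others were chosen after their values were seen. The members and the gene lists were chosen with earlier results of these data known, so list counts are descriptions. Alternatives were other scalings, probe set rules, array weights, a replicate block, and leaving out arrays.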

Additional observations from a re-analysis of the deposited data

Results flagged for a closer look

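For 3 genes the set difference in the mutants differed from that in the wild types by limma's test of the difference itself. The mutant difference minus the wild-type difference was -4.92 for AI506816, 3.46 for Serpina3n and 1.42 for Slc43a3 (log2). No comparison of genes used the 12146 probe sets that lack a symbol. Among them 365 were higher and 128 lower in the wild types of the L set (4.06% in all).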

How the results depend on the processing

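The signs of the 1736 genes that passed were the same in all 22 alternative settings, but the number that passed was not stable. Leaving out arrays could not change the sign of the 1729 whose arrays did not overlap. Nor could settings that keep the same wild-type means, such as the wild types alone, another estimate of spread or the replicate block. The fit to the 6 wild-type arrays alone called 228 genes (71 higher, 157 lower), quantile scaling 2686 (1771 lower), array weights 6520 (2877 higher, 3643 lower) and an adjusted p under 0.01 488 (139 higher, 349 lower). In the 6 wild-type arrays alone 2 replication, 1 mitosis, 2 contractile and 3 other patterning genes were lower. No immediate-early, imprinted or TGF-beta and BMP gene passed there, and 4 snoRNA, 4 ribosomal protein and 4 Meg3 interval genes were higher. Median centring called 333 higher. Without both male arrays 304 passed (108 higher, 196 lower), and without both wild-type arrays numbered 1 it was 1048 (314 higher). Leaving out 1 array gave 525 to 2078 genes, 170 to 885 higher and 355 to 1446 lower. The mutant comparison called 2892 genes in its 6 arrays alone, 3739 with array weights, 551 without both male arrays, 3730 without the wild-type arrays numbered 1, and 733 to 3790 leaving out 1 array. The cause of these shifts was not tested, beyond fewer arrays where arrays were left out. The replicate block called 1794 genes (704 higher, 1090 lower) in the wild types and 2061 in the mutants. Same-numbered wild-type arrays correlated at 0.0118, -0.127 and 0.0645 in their deviations from the group means. With so few arrays these values cannot decide whether arrays of 1 number share embryos or handling, which the labels leave unsaid. Wild-type and mutant arrays of the same number were not compared in this way. Scaling moved the median of all genes to -0.086 (quantile) and -0.096 (median centring). With 3 arrays a group, differences near the threshold were the least stable.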

Other observations

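By RefSeq gene type, 39.6% of 53 snoRNA genes passed between the wild-type sets, all of them higher in the L set, beside 8.96% of 18553 protein-coding genes (646 higher, 1016 lower), 5.72% of 297 microRNA genes (16 higher, 1 lower) and 3.41% of 675 long noncoding RNA genes (13 higher, 10 lower).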
